A study of Mus musculus with 6 samples.

Results

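The Mir506 family is a group of rapidly evolving microRNA (miRNA) genes on the mouse X chromosome, and 10 of its genes, Mir743, Mir743b, Mir463, Mir883a, Mir881, Mir878, Mir201, Mir470, Mir741 and Mir871, are described here out of 2202 annotated miRNA genes that were searched. The 10 names were given as a list, which was chosen with earlier results of these data known. Reads of 18 to 26 nt that matched a gene's hairpin exactly and in sense were counted. Such reads numbered 3397296 for the 10 genes over 6 libraries, in 269 distinct sequences. None of these reads matched another miRNA gene or another annotated transcript, so no read had to be divided.

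Small RNA came from whole testis of C57BL/6 mice, and each group was 1 pooled library of an 18 to 35 nt fraction. At 10 days post partum (dpp) 3 mice were pooled per genotype, for a Dnmt3L knockout (KO) with its wild-type (WT) littermates and for a Miwi2 KO with its WT littermates. At 16.5 days post coitum (dpc) testes of 7 or 8 mice were pooled per genotype, for the Dnmt3L KO and its WT littermates. Dnmt3L is a cofactor of de novo DNA methylation in fetal male germ cells, and Miwi2 is a PIWI protein that binds piRNAs in the same cells. Loss of either is known to release transposons and to stop spermatogenesis in meiosis. Small RNA reads do not measure the mRNA of Dnmt3L or Miwi2, so the genotypes were not checked here.

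A miRNA hairpin holds 2 arms, 5p and 3p, and the arm kept in an Argonaute protein selects target mRNAs mainly through its seed, bases 2 to 8 counted from the 5′ end. A change of the 5′ end by 1 base therefore changes the seed. In mouse the Mir506 family is made mostly in testis, and its genes lie in a cluster between Slitrk2 and Fmr1. Many X-linked miRNAs of this kind are known to go on being transcribed while the rest of the X chromosome is silenced in meiosis, and members have been described in both germ cells and Sertoli cells.

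On the GRCm38 build 9 of the 10 hairpins lay on the minus strand of chromosome X within 37.3 kb, at chrX:66776757-66814025. In the direction of transcription they stood in the order Mir470, Mir871, Mir881, Mir878, Mir463, Mir741, Mir883a, Mir743b and Mir743. The hairpin of Mir201, at chrX:67988096-67988161, lay upstream of Mir470 by 1174070 nt, on the same strand. The closest neighbours were Mir881 and Mir878, 358 nt apart, and Mir743b and Mir743, 437 nt apart. All 10 are annotated as miRNA genes of their own, 62 to 78 nt long.

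The arm with more reads over the 6 libraries was the 3p arm in 6 members and the 5p arm in 4. These arms are shown as RefSeq gives them (GRCm38.p6, all 10 members matched), 5′ to 3′, with the seed in capitals, because the seeds set the members apart.
miR-470-5p: uUCUUGGAcuggcacuggugagu
miR-871-3p: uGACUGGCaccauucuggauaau
miR-881-3p: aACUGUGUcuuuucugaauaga
miR-878-5p: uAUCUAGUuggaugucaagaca
miR-463-5p: uACCUAAUuuguuguccaucau
miR-741-3p: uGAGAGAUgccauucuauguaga
miR-883a-3p: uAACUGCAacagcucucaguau
miR-743b-3p: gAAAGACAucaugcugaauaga
miR-743a-3p: gAAAGACAccaagcugaguaga
miR-201-5p: uACUCAGUaaggcauuguucuu

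These 10 arms carried 9 different seeds, and over all 20 annotated arms there were 18. The only seed shared among the main arms was AAAGACA, of miR-743a-3p and miR-743b-3p, which differ at 3 of 22 positions. Outside the list, miR-883b-3p of the same family had the seed of miR-883a-3p. The main arms of the other 7 members (Mir470, Mir871, Mir881, Mir878, Mir463, Mir741 and Mir201) shared their seed with no other mature miRNA in the RefSeq table of 1679. Although 9 of the 10 members lay within 37.3 kb, most of the main products differed in seed.

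The 3p ends were more alike than the seeds. Of the 10 annotated 3p arms, 5 ended in UAGA (of Mir741, Mir743, Mir743b, Mir878 and Mir881), and 4 of 10 did so among other genes of the family. Among 689 other mouse 3p miRNAs, 3 ended in UAGA, or 0.435%. The motif was taken from these same sequences, so the contrast describes them and is not a test. The other family arms with it were miR-465a-3p, miR-465b-3p and miR-465c-3p, of near-identical copies, and miR-880-3p. The motif was read on the mature strand only, in the annotated sequences. The most read form of miR-878-3p, 21 nt long, lacked the last base of the motif. That of miR-463-3p, 23 nt long, ended in UAGA although the annotated form does not.

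Levels are reads per 1e6 reads of all miRNA genes (RPM), not divided by length, since all products are of nearly the same length, and adapter ligation, which favours some miRNA sequences over others, was not corrected. The libraries held 12101706 to 24433370 such reads, so the limit that a count of 0 allows, 3 reads, was 0.123 to 0.248 RPM. Each group is a single library, so no difference could be checked against replicates and no test was made. Intervals are 95% and exact. They hold counting error alone, because the reads have no molecular identifiers. As a measure of size, the spread between the WT library of the Miwi2 line and that of the Dnmt3L line at 10 dpp was used, although line and library cannot be told apart in it. For 95% of 315 miRNA genes with 1000 or more reads these WT libraries differed by less than 5.79-fold, or 2.53 on the log2 scale, and a ratio is called here only past that size limit. The ratios behind the limit were not centred. Their median, Miwi2 WT over Dnmt3L WT, was 0.66 on the log2 scale, so the limit holds that shift as well as the spread. In whole testis, fewer cells of a type and less RNA per cell cannot be told apart. Mir202, a miRNA of Sertoli cells and a mark of the gonad, was present in all 6 libraries, at 103 to 800 RPM.

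The family supplied a sizeable share of testis miRNA at 10 dpp. Its summed level was 13443 RPM in the Dnmt3L KO and 48969 RPM in its WT, and 72077 RPM in the Miwi2 KO and 35469 RPM in its WT. At 16.5 dpc the sum was 9527 RPM in the Dnmt3L KO and 10504 RPM in the WT. In shares of all miRNA reads, the family held 7.21% in the Miwi2 KO and 3.55% in its WT, and 1.34% in the Dnmt3L KO and 4.90% in its WT at 10 dpp. The fetal libraries had 0.953% in the Dnmt3L KO and 1.05% in the WT. Mir470 and Mir871 together made up 92.5% to 99.4% of the family's reads in the 6 libraries, so the sum follows these 2 genes, and the other 8 members are given on their own below.

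Mir470, read almost wholly from its 5p arm, stood at 5730 RPM in the Dnmt3L KO and 20009 RPM in its WT at 10 dpp, at 35694 RPM in the Miwi2 KO and 18793 RPM in its WT, and at 4019 RPM in the Dnmt3L KO and 5629 RPM in the WT at 16.5 dpc. Mir871, read mainly from its 3p arm, stood at 6954 RPM in the Dnmt3L KO and 27443 RPM in its WT at 10 dpp, at 31007 RPM in the Miwi2 KO and 14291 RPM in its WT, and at 5446 RPM in the Dnmt3L KO and 4639 RPM in the WT at 16.5 dpc. Both were highest in the Miwi2 KO, and among the libraries of 10 dpp both were lowest in the Dnmt3L KO. In the Miwi2 KO they ranked 7 and 9 among all miRNA genes, Mir470 ahead of Mir871. Mir871 was ahead of Mir470 in 3 libraries, with a ratio of Mir871 to Mir470 of 1.21 in the Dnmt3L KO and 1.37 in its WT at 10 dpp, and 1.36 in the Dnmt3L KO at 16.5 dpc. It was behind in the other 3, at 0.869 in the Miwi2 KO, 0.760 in its WT and 0.824 in the Dnmt3L WT at 16.5 dpc.

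Mir881 was the third member in every library. It had 309 RPM in the Dnmt3L KO and 525 RPM in its WT at 10 dpp, 2698 RPM in the Miwi2 KO and 1258 RPM in its WT, and 28.3 RPM in the Dnmt3L KO and 175 RPM in the WT at 16.5 dpc. Its neighbour Mir878 had 92.4 RPM in the Dnmt3L KO and 188 RPM in its WT at 10 dpp, 920 RPM in the Miwi2 KO and 360 RPM in its WT, and 12.1 RPM in the Dnmt3L KO and 14.5 RPM in the WT at 16.5 dpc. Both were higher in either Miwi2-line library than in either Dnmt3L-line library of 10 dpp. Mir463 read 163 RPM in the Dnmt3L KO and 395 RPM in its WT at 10 dpp, 885 RPM in the Miwi2 KO and 294 RPM in its WT, and 9.25 RPM in the Dnmt3L KO and 16.6 RPM in the WT at 16.5 dpc. Unlike Mir881 and Mir878, Mir463 was lower in the Miwi2 WT than in the Dnmt3L WT of 10 dpp.

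The remaining 5 members had at most 364 RPM in any library. Mir743b had 77.4 RPM in the Dnmt3L KO and 202 RPM in its WT at 10 dpp, 364 RPM in the Miwi2 KO and 175 RPM in its WT, and 3.39 RPM in the Dnmt3L KO and 9.92 RPM in the WT at 16.5 dpc. Mir743, which lies next to it, had 13.5 RPM in the Dnmt3L KO and 48.5 RPM in its WT at 10 dpp, 75.6 RPM in the Miwi2 KO and 61.0 RPM in its WT, and 1.74 RPM in the Dnmt3L KO and 1.94 RPM in the WT at 16.5 dpc. Mir743b was above Mir743 in each of the 6 libraries. Mir883a gave 33.5 RPM in the Dnmt3L KO and 79.0 RPM in its WT at 10 dpp, 188 RPM in the Miwi2 KO and 136 RPM in its WT, and 2.81 RPM in the Dnmt3L KO and 3.71 RPM in the WT at 16.5 dpc. Mir741 gave 11.03 RPM in the Dnmt3L KO and 30.1 RPM in its WT at 10 dpp, 129 RPM in the Miwi2 KO and 57.6 RPM in its WT, and 0.578 RPM in the Dnmt3L KO and 2.42 RPM in the WT at 16.5 dpc. Both were lowest in the fetal libraries, where Mir741 rested on 7 reads in the Dnmt3L KO and 30 reads in the WT. Mir201 gave 59.5 RPM in the Dnmt3L KO and 49.5 RPM in its WT at 10 dpp, 117 RPM in the Miwi2 KO and 43.3 RPM in its WT, and 3.64 RPM in the Dnmt3L KO and 11.3 RPM in the WT at 16.5 dpc. Mir201, the distant member, was the only one above its WT in the Dnmt3L KO at 10 dpp.

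**Figure D1:**
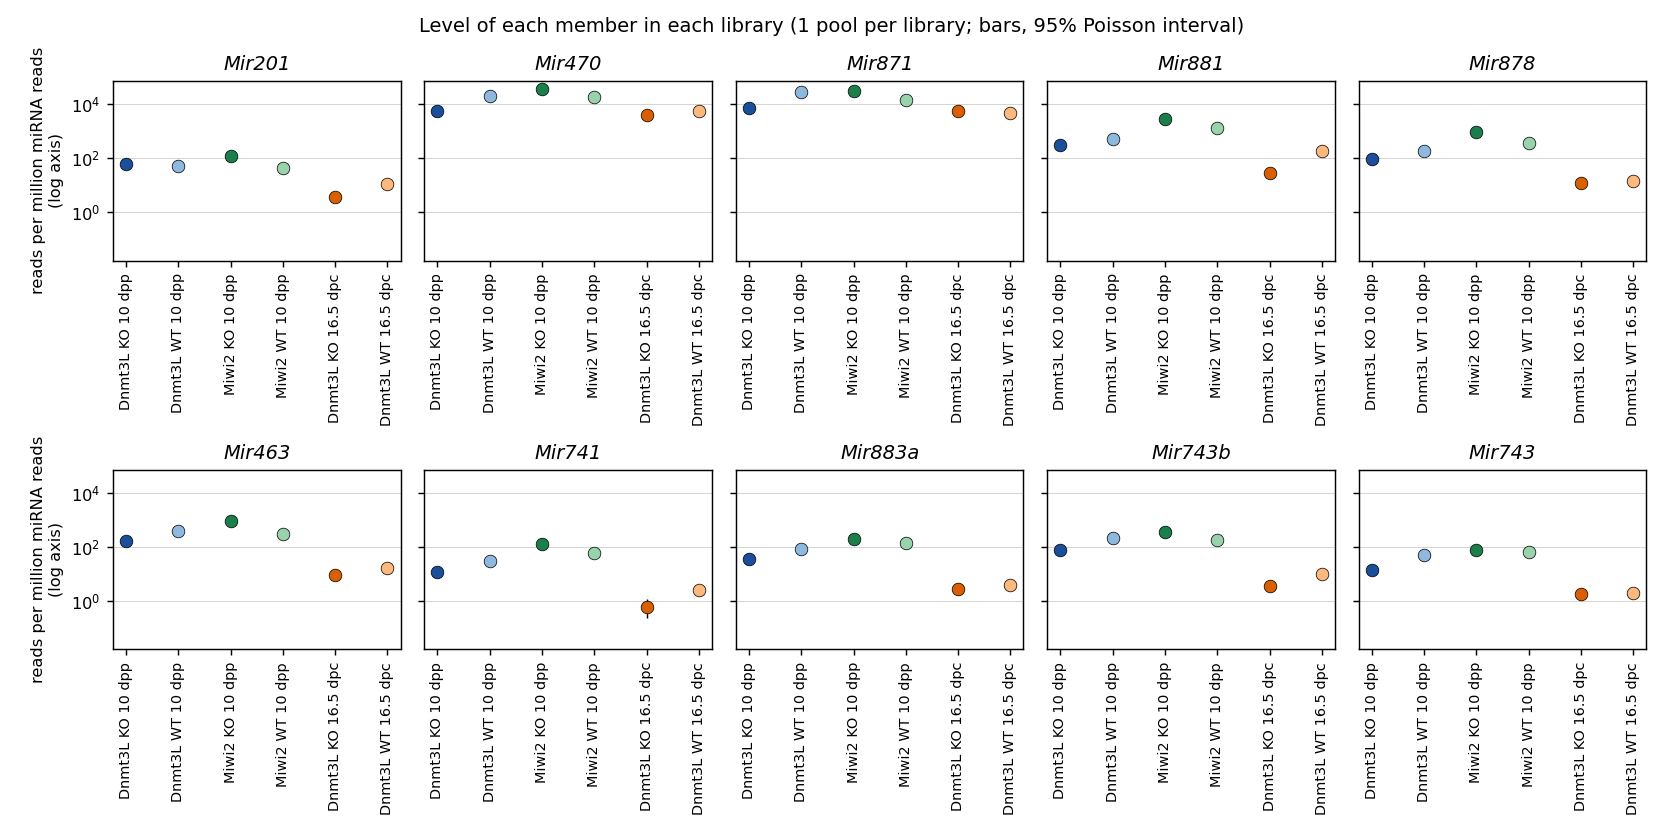
Level of each member in each library, in RPM on a log axis, with members in the order of transcription. Each point is 1 pooled library and the bars are 95% Poisson intervals, mostly smaller than the points. In 9 of 10 panels the Dnmt3L KO of 10 dpp is the lowest of the 4 libraries of that age, and in all 10 the Miwi2 KO is the highest of them.

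The order of the levels followed the place in the cluster in part. Mir470 and Mir871, the foremost of the clustered hairpins in the direction of transcription, had the highest levels in all 6 libraries, and Mir881, Mir878 and Mir463 came next along the strand. Mir741 was lower than Mir743b, which lies beyond it, in all 6 libraries. The Dnmt3L WT at 10 dpp had 395 RPM for Mir463, 30.1 RPM for Mir741 and 202 RPM for Mir743b, so the level did not drop steadily with distance. Mir741 and Mir743, close to each other in level, traded places between libraries, and Mir741 was the higher of them in the Miwi2 KO (129 RPM against 75.6 RPM) and the lower in its WT (57.6 RPM against 61.0 RPM).

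**Figure D2:**
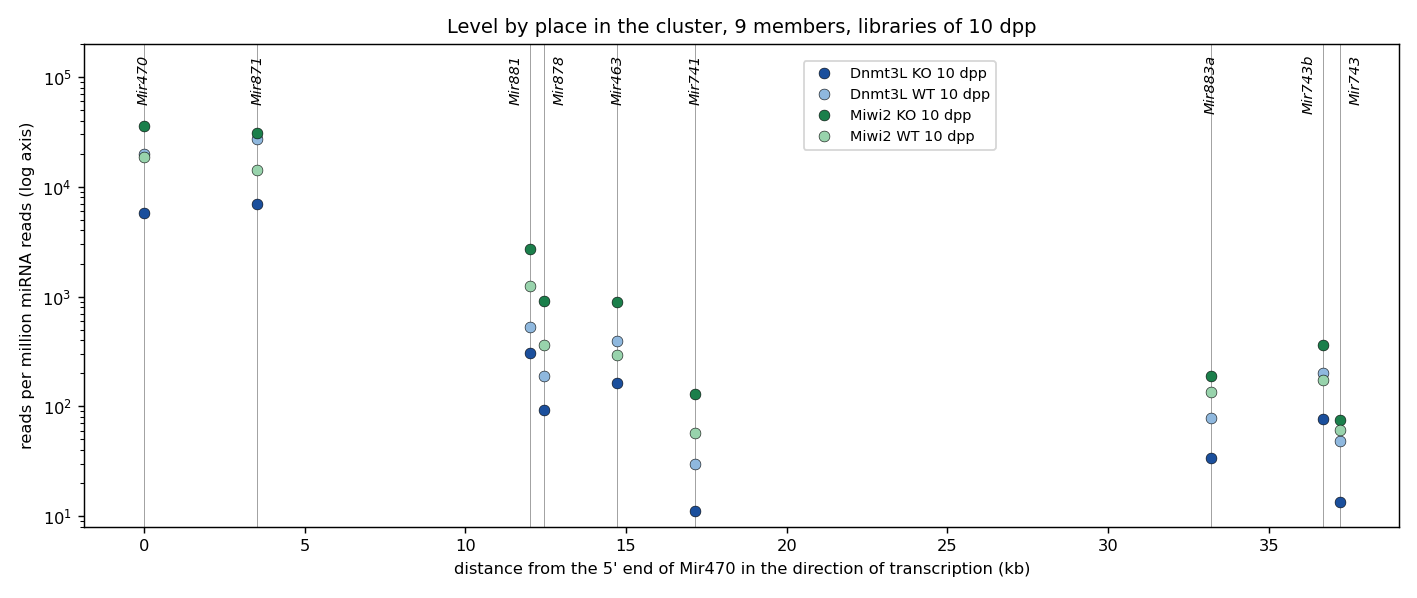
Level of the 9 clustered members, in RPM on a log axis, against the distance in kb from the 5′ end of Mir470 in the direction of transcription. Points are the 4 libraries of 10 dpp. Mir470 and Mir871 at the left stand at 5730 RPM or more in each, and Mir741 lies below both its neighbours, Mir463 and Mir883a.

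The most calls were in the comparison of ages. In the Dnmt3L WT libraries all 10 members were higher at 10 dpp than at 16.5 dpc, by 2.99-fold for Mir881 to 25.1-fold for Mir743. Of the 9 members with 1000 or more reads over both libraries, 6 rose past the size limit, against 8.08% of all 297 miRNA genes compared that did so upwards (20.9% in either direction). Mir743 (25.1-fold, interval 16.8 to 39.3), Mir463 (23.8-fold, 20.7 to 27.4), Mir883a (21.3-fold, 15.9 to 29.2), Mir743b (20.3-fold, 17.0 to 24.5) and Mir878 (13.0-fold, 11.2 to 15.1) ranked 2 to 6 from the top. Mir871 was just past the limit, at 5.92-fold, and its call was lost under 4 of 10 other settings: a limit set on genes with a RefSeq mature miRNA, a minimum of 100 reads, reads of 1 miRNA gene only, and thinned libraries. The median over the 10 members was 3.67 on the log2 scale, beside 0.29 over all 297 genes. Scaled to all reads of 18 to 35 nt instead, the median over all genes was 1.35, and 9 of 9 members were past that setting's limit. Mir741 had a ratio of 12.4 (8.64 to 18.6) but too few reads to be compared. Mir201 (4.39-fold), Mir470 (3.55-fold) and Mir881 (2.99-fold) were higher at 10 dpp within the limit.

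The share of Mir470 and Mir871 in the family's reads was close at both ages in the WT, 97.8% at 16.5 dpc and 96.9% at 10 dpp. Within that pair, the ratio of Mir871 to Mir470 was 0.824 at 16.5 dpc and 1.37 at 10 dpp. The 8 members other than Mir470 and Mir871 summed to 1517 RPM in the WT at 10 dpp and 236 RPM in the WT at 16.5 dpc, a 6.43-fold ratio. The whole family had a 4.66-fold ratio, within the limit. In the Dnmt3L KO the same 8 members had 759 RPM at 10 dpp and 61.8 RPM at 16.5 dpc, a 12.3-fold ratio. Mir470 and Mir871 in the KO were 1.43-fold and 1.28-fold higher at 10 dpp. Of 7 members compared between ages in the KO, 5 rose past the limit (Mir743b, Mir463, Mir201, Mir881 and Mir878), where 5.78% of 277 miRNA genes rose and 16.2% moved either way. The difference between the KO and the WT in these ratios was not tested. In both genotypes the files of 10 dpp hold reads of up to 100 nt and those of 16.5 dpc of up to 50 nt, so age and this difference between the files cannot be told apart.

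Markers that moved with age are given beside these values, and their part in the result was not tested. Mir202 of Sertoli cells had 397 RPM in the WT at 10 dpp and 103 RPM in the WT at 16.5 dpc. The 14 miRNAs of primordial germ and pluripotent cells summed to 78.2 RPM at 10 dpp and 944 RPM at 16.5 dpc, and 4 of 4 compared fell past the limit. The 5 miRNAs of meiotic and ciliated cells, Mir34b, Mir34c, Mir449a, Mir449b and Mir449c, summed to 105 RPM at 10 dpp and 808 RPM at 16.5 dpc, with Mir449b at 0 in both. Of these, Mir34c fell past the limit, with 90.6 RPM at 10 dpp and 760 RPM at 16.5 dpc (-3.07 on the log2 scale). In the WT, 3 markers rose past the limit as members did: Mir145a of peritubular cells (2.55 on the log2 scale) and Mir200a (2.60) and Mir429 (2.67) of epithelium. In the KO, Mir141 (4.04), Mir200a (3.33) and Mir429 (4.36) of epithelium and Mir449a (5.63) rose past it between the ages, while Mir34b (-3.37), Mir214 (-2.82), Mir291a (-5.22) and Mir292 (-5.47) fell past it.

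At 10 dpp the Dnmt3L KO had lower levels of the family than its WT, but no member passed the size limit. Of the 10 members, 9 had a ratio of KO to WT below 1, from 0.253 (0.252 to 0.255) for Mir871 and 0.278 (0.244 to 0.316) for Mir743 up to 0.588 (0.571 to 0.606) for Mir881. Mir201 had a ratio of 1.20 (1.11 to 1.30). The summed family had a ratio of 0.275, or -1.87 on the log2 scale, within the limit of 2.53. Of the 9 members compared, 0 were called, where 25% of 296 miRNA genes were called in either direction and 23.6% as lower. The median over the 10 members was -1.33 on the log2 scale, beside 0.25 over all 296 genes. That median over all genes was 0.83 with TMM scaling and 0.43 when scaled to all reads of 18 to 35 nt.

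The large share of called genes came mostly from annotated genes that RefSeq does not hold as mature miRNAs. Of 70 genes called as lower, 67 had no RefSeq mature miRNA and 3 had one. Some genes called as lower have equal values because their reads were divided, such as Gm22625, Gm22907 and Gm26268 (each -3.61 on the log2 scale). These calls are not separate, and shares over all miRNA genes count such copies more than once. Among the 209 compared genes with a RefSeq mature miRNA, 1.91% passed a limit set on such genes alone. There the ratios of Mir871, Mir743 and Mir470 ranked 5, 6 and 8 from the lowest, those of Mir743b, Mir463, Mir883a, Mir878 and Mir881 ranked 12 to 22, and that of Mir201 ranked 71. Set against both WT libraries of 10 dpp, 9 of 10 members were lower in the Dnmt3L KO than in either, where 37.6% of 330 miRNA genes, and 15.8% of 234 with a RefSeq mature miRNA, lay below both. These comparisons share the Dnmt3L WT library with the comparison of ages.

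In the Miwi2 KO all 10 members had a ratio to their WT above 1. The ratios ran from 1.24 (1.14 to 1.35) for Mir743 and 1.38 (1.31 to 1.46) for Mir883a to 2.71 (2.48 to 2.95) for Mir201 and 3.01 (2.91 to 3.11) for Mir463. Mir470 had a ratio of 1.90 (1.89 to 1.91) and Mir871 one of 2.17 (2.16 to 2.18). None of the 10 passed the size limit, nor did any miRNA gene as higher, and 0.643% of 311 genes were called in either direction, both of them lower (Mir449a and Mir449c, below). The median over the 10 members was 1.11 on the log2 scale, beside -0.09 over all 311 genes. Most miRNA genes differed little here, and 8 of the 10 members ranked between 2 and 16 from the highest of the 311. Mir463, Mir201 and Mir878 stood at ranks 2, 3 and 4, while Mir883a stood at 58 and Mir743 at 84.

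Between the WT libraries of that age, the ratio of the Miwi2 WT to the Dnmt3L WT lay between 0.521 for Mir871 and 2.40 for Mir881, with 5 members above 1 and 5 below. None was past the limit, which by its making left 5.08% of 315 genes outside. The median over the 10 members was 0.12 on the log2 scale, beside 0.66 over all 315 genes, of which 81.6% were above 0. All 10 members were higher in the Miwi2 KO than in either WT, where 38.8% of 340 miRNA genes, and 48.9% of 237 with a RefSeq mature miRNA, lay above both. Mir871 was only slightly above, at 31007 RPM in the Miwi2 KO and 27443 RPM in the Dnmt3L WT.

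Markers of other cells also differed within these pairs, and their part in the family's ratios was not tested. The miRNAs of meiotic and ciliated cells summed to 472 RPM in the Dnmt3L KO and 105 RPM in its WT, and to 313 RPM in the Miwi2 KO and 699 RPM in its WT. The direction in each pair was opposite to that of the family. Mir449a rose past the limit in the Dnmt3L KO, to 127 RPM against 4.91 RPM in its WT, and fell past it in the Miwi2 KO, to 8.99 RPM against 152 RPM in its WT. Mir449c fell past the limit in the Miwi2 KO, to 6.97 RPM against 88.6 RPM in its WT. Between the WT libraries themselves, Miwi2 over Dnmt3L, both were past the limit, at 4.95 for Mir449a and 6.08 for Mir449c on the log2 scale. All 5 had reads in the Dnmt3L KO and the Miwi2 WT, and Mir449b was at 0 in the Dnmt3L WT and the Miwi2 KO. The 7 miRNAs of epithelium summed to 790 RPM in the Dnmt3L KO and 301 RPM in its WT, and to 545 RPM in the Miwi2 KO and 772 RPM in its WT, with all 7 read in every library. Of these, Mir141, Mir205 and Mir375 rose past the limit in the Dnmt3L KO and none was past it in the Miwi2 KO. Between the WT libraries themselves, Miwi2 over Dnmt3L, Mir205 (3.47 on the log2 scale) and Mir375 (3.21) were past the limit too. Mir141 had too few reads there to be compared. Mir202 had 563 RPM in the Dnmt3L KO and 397 RPM in its WT, and 800 RPM in the Miwi2 KO and 475 RPM in its WT. The 6 miRNAs of peritubular cells and fibroblasts summed to 45354 RPM in the Dnmt3L KO and 48942 RPM in its WT, and to 48865 RPM in the Miwi2 KO and 48024 RPM in its WT. Most of that sum was Mir143, with 31140 RPM in the Dnmt3L KO and 40652 RPM in its WT, while the other 5 (Mir145a, Mir199a-1, Mir199a-2, Mir199b and Mir214) had ratios above 1 in that KO, at 0.46 to 0.84 on the log2 scale. In the Miwi2 KO all 6 were between -0.14 and 0.54. Mir126a of endothelium had 970 RPM in the Dnmt3L KO and 906 RPM in its WT, and 1860 RPM in the Miwi2 KO and 1148 RPM in its WT. The 3 miRNAs of leukocytes and the 2 of erythroid cells summed to at most 241 RPM and 103.4 RPM in any library.

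At 16.5 dpc only 3 members had enough reads to be compared. Mir881 was lower in the Dnmt3L KO, with 343 reads in the KO and 2175 reads in the WT, a ratio of 0.162 (0.144 to 0.181), or -2.63 on the log2 scale. It was the only 1 of the 3 past the limit, where 2.21% of 271 miRNA genes were called in either direction and 1.48% as lower. The call lay just beyond the limit of 2.53 and was lost under 5 of 10 other settings. Mir470 had a ratio of 0.714 (0.706 to 0.722) and Mir871 one of 1.17 (1.16 to 1.19). Over all 10 members 9 ratios were below 1, with a median of -0.66 on the log2 scale, beside -0.16 over the 271 genes. The 7 members under 1000 reads had ratios of 0.239 (Mir741) to 0.897 (Mir743).

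Mir881 and Mir878, 358 nt apart on the same strand, kept a similar ratio to each other in 5 of the 6 libraries. Mir881 had 3.34 reads per read of Mir878 in the Dnmt3L KO and 2.79 in its WT at 10 dpp, and 2.93 in the Miwi2 KO and 3.50 in its WT. At 16.5 dpc the ratio was 2.35 (1.93 to 2.87) in the Dnmt3L KO and 12.1 (10.4 to 14.1) in the WT. The Dnmt3L WT of 16.5 dpc had the highest ratio of the 6 libraries and the KO of that age the lowest. The KO also had the lowest level of Mir881. With 1 library each, the difference cannot be put down to one of them.

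Markers differed in this pair too, and their part in the result was not tested. The 6 miRNAs of peritubular cells and fibroblasts summed to 23108 RPM in the Dnmt3L KO and 44060 RPM in the WT, with Mir143 at -1.33 and Mir214 at 1.48 on the log2 scale. Mir202 had 211 RPM in the KO and 103.4 RPM in the WT, and Mir34b had 208 RPM in the KO and 40.7 RPM in the WT. Mir34c, of the same list as Mir34b and more read, went the other way, with 548 RPM in the KO and 760 RPM in the WT. The 5 miRNAs of meiotic and ciliated cells summed to 762 RPM in the KO and 808 RPM in the WT, the 7 of epithelium to 273 RPM and 289 RPM, and the 14 of primordial germ and pluripotent cells to 1007 RPM and 944 RPM. None of the genes of these lists passed the limit.

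**Figure D3:**
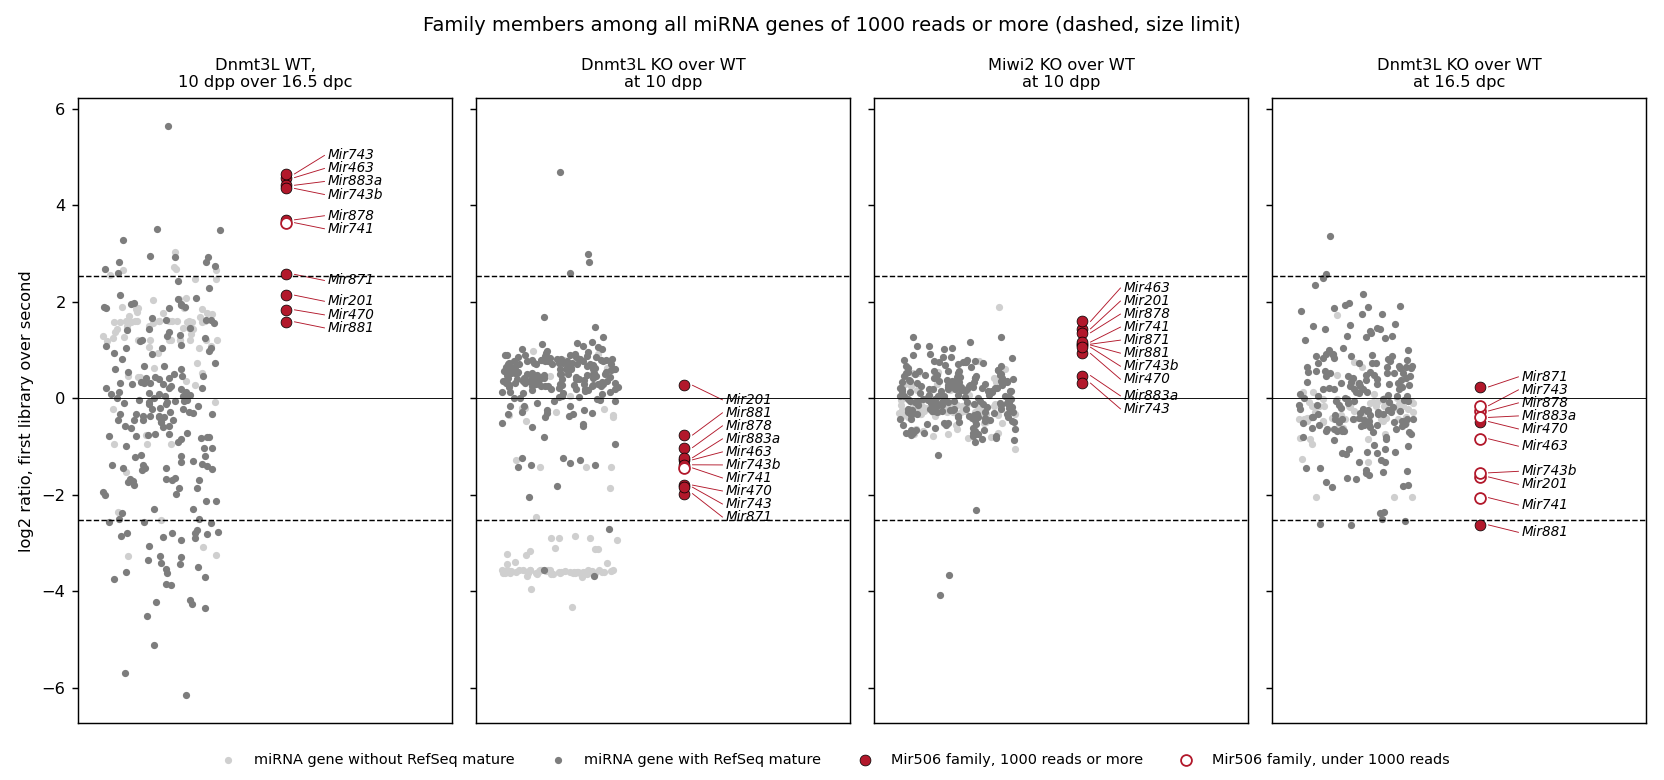
Log2 ratio of the first library named over the second for miRNA genes with 1000 or more reads over both (grey, dark where RefSeq holds a mature miRNA) and for the 10 members (red, open where under 1000 reads), in 4 comparisons. Dashed lines mark the size limit of 2.53. The members lie above most genes in the comparison of ages and in the Miwi2 comparison, and below most dark points in the Dnmt3L KO at 10 dpp, where a band of pale points lies lower still.

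Other genes of the family, 12 outside the list, gave similar values. They are Mir465, Mir465b-1, Mir465b-2, Mir465c-1, Mir465c-2, Mir465d, Mir880, Mir883b, Mir742, Mir509, Mir547 and Mir471, and reads shared among the near-identical Mir465 copies were divided, so single copies are uncertain. Summed, they had 2154 RPM in the Dnmt3L KO and 5447 RPM in its WT at 10 dpp, 17403 RPM in the Miwi2 KO and 10110 RPM in its WT, and 861 RPM in the Dnmt3L KO and 713 RPM in the WT at 16.5 dpc. In the comparison of WT ages 6 of 6 with enough reads rose past the limit (the 5 Mir465 copies other than Mir465d, and Mir883b), beside the 8.08% of all 297 genes that did so. The values of Mir465b-1 and Mir465b-2 are equal, as are those of Mir465c-1 and Mir465c-2, because their reads were divided, so the calls are not separate. Both Mir465c copies (2.82 on the log2 scale) fall short of the limit of 2.84 set on genes with a RefSeq mature miRNA. The most read, Mir465c-1 and Mir465c-2, each had 1387 RPM in the WT at 10 dpp and 196 RPM in the WT at 16.5 dpc. Mir883b, which shares the seed of miR-883a-3p, had 55.7 RPM at 10 dpp and 4.92 RPM at 16.5 dpc. At 10 dpp 7 of 8 had a ratio below 1 in the Dnmt3L KO (median -1.32 on the log2 scale), Mir547 being the one above, and 8 of 8 had a ratio above 1 in the Miwi2 KO (median 0.81), none past the limit. Mir471, which lies among the members, had 8.49 RPM in the Dnmt3L KO and 23.7 RPM in its WT at 10 dpp, and 53.2 RPM in the Miwi2 KO and 23.7 RPM in its WT. Mir509 had no read.

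Other genes of the X chromosome gave other values. Of 120 other X-linked miRNA genes, 24 were compared in the Dnmt3L KO at 10 dpp and 22 of them had a ratio above 1 (median 0.36 on the log2 scale), with Gm26318 past the limit as lower. In the Miwi2 KO 14 of 23 were above 1 (median 0.19), and between WT ages 15 of 21 were lower at 10 dpp (median -0.75), Mir92-2 past the limit, while Mir374b was past it as higher. At 16.5 dpc Mir19b-2 was past the limit as lower in the Dnmt3L KO.

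Which arm had more reads was the same in all 6 libraries for 9 members, and Mir743, which used both arms, was the exception, but the shares differed between libraries in several. Mir470, Mir463 and Mir201 had at least 97.9% of reads on the 5p arm in every library. Mir881 had 3.26% (2.85% to 3.71%) in the Dnmt3L KO and 5.07% (4.70% to 5.46%) in its WT at 10 dpp, and 2.17% (2.03% to 2.33%) in the Miwi2 KO and 1.55% (1.39% to 1.72%) in its WT, so that at this age the Dnmt3L-line libraries were the higher. Mir871 had 8.11% of reads on its 5p arm in the Dnmt3L KO and 4.90% in its WT at 10 dpp, against 13.6% in the Miwi2 KO and 17.6% in its WT. Mir743b had 4.95% in the Dnmt3L KO and 4.42% in its WT at 10 dpp, and 12.1% in the Miwi2 KO and 17.1% in its WT. For both genes the Miwi2-line libraries were above the Dnmt3L-line libraries of 10 dpp whatever the genotype, beyond counting error. The files of the Dnmt3L line at 10 dpp also hold reads of up to 100 nt, and the other 4 files of up to 50 nt, so mouse line and this difference between the files cannot be told apart. The fetal Dnmt3L libraries had 9.21% in the KO and 8.30% in the WT for Mir871, and 14.6% (5.57% to 29.2%) in the KO and 19.5% (12.9% to 27.6%) in the WT for Mir743b, as high as in the Miwi2 line. The ratio of Mir871 depended on the arm read. In the Dnmt3L KO at 10 dpp it was 0.245 for miR-871-3p and 0.419 for miR-871-5p, and in the Miwi2 KO it was 2.27 for miR-871-3p and 1.68 for miR-871-5p. Between the WT libraries of 10 dpp, Miwi2 over Dnmt3L, the arms went opposite ways, with 0.451 for miR-871-3p and 1.87 for miR-871-5p.

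Mir743 used both arms, with 40.1% (34.4% to 45.9%) on the 5p arm in the Dnmt3L KO and 45.5% in its WT at 10 dpp, and 42.5% in the Miwi2 KO and 52.0% (49.0% to 55.0%) in its WT. Mir878 had 94.3% in the Dnmt3L KO and 91.1% in its WT at 10 dpp, and 79.5% (72.0% to 85.7%) in the Dnmt3L KO and 84.4% (78.3% to 89.4%) in the WT at 16.5 dpc. The ratio of Mir743 also depended on the arm in the Miwi2 KO over its WT. It was 1.01 (0.893 to 1.15) for miR-743a-5p and 1.49 (1.32 to 1.67) for miR-743a-3p. For Mir743b it was 1.47 on the 5p arm and 2.20 on the 3p arm.

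**Figure D4:**
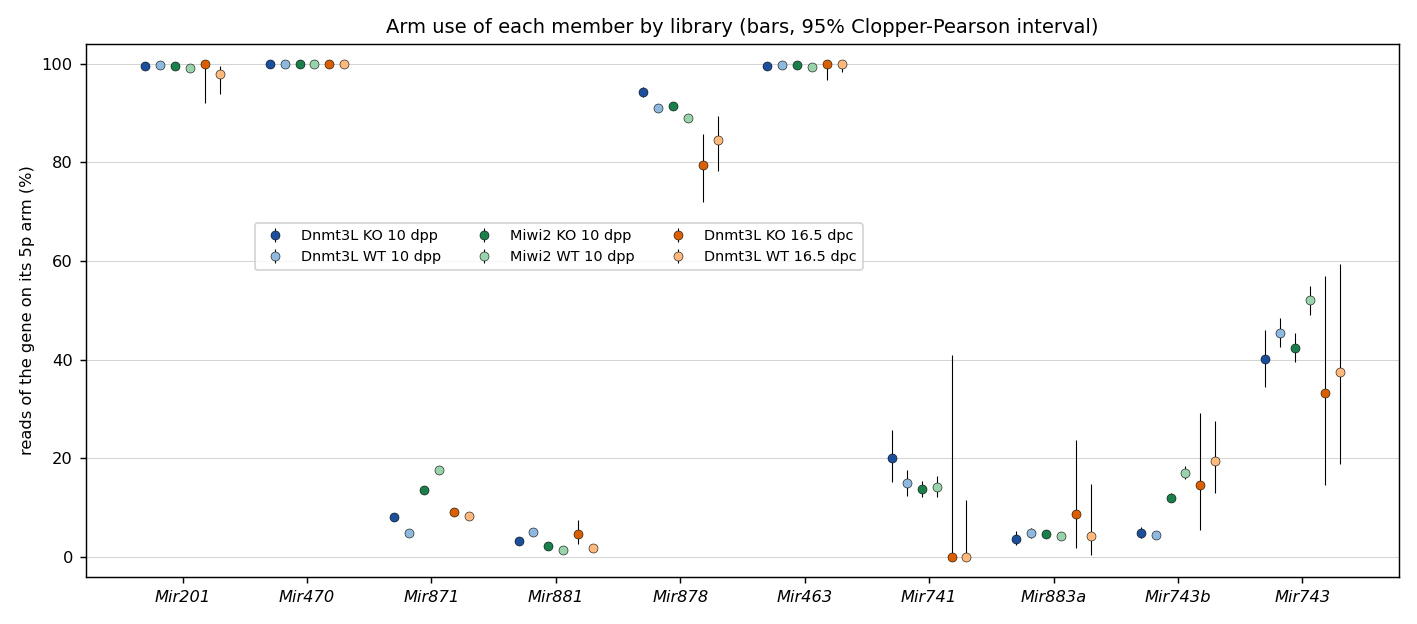
Share of each member's reads on its 5p arm, in percent, in each of the 6 libraries, with 95% Clopper-Pearson intervals. Members stand in the order of transcription. For Mir871 and Mir743b the Miwi2-line points lie above the Dnmt3L-line points of 10 dpp, and the wide bars belong to fetal libraries with few reads.

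The 5′ ends of reads matched the RefSeq mature miRNA in 97.6% or more of reads for 10 of the 20 arms, and in 92.6% or fewer for the other 10. For miR-470-5p 99.8% of reads and for miR-871-3p 99.9% began at the annotated base. The arm that went furthest from it was the 5p arm of Mir881. Of its 2111 reads over the 6 libraries, 99.8% began 4 nt upstream of the annotated end and none began at it, and each library showed this, at 99.5% to 100%. The hairpin of Mir881, with the annotated arms in capitals, shows where the reads began, inside the lower-case stretch before the 5p arm.
Mir881 hairpin: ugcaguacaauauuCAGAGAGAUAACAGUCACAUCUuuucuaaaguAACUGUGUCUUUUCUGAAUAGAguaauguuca
miR-881-5p, RefSeq: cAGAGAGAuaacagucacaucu
miR-881-5p, most read: tATTCAGAgagataacagtcac
miR-743a-5p, RefSeq: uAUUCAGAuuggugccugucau
miR-871-5p, RefSeq: uAUUCAGAuuagugccagucaug

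Seeds are again in capitals, and the read is given in T as the files hold it. The reads of miR-881-5p had the seed AUUCAGA and not the annotated AGAGAGA, and AUUCAGA is also the seed of miR-743a-5p and miR-871-5p. By reads, then, 3 members and not 2 shared this seed on their 5p arms. Reads with it had 541 RPM in the Dnmt3L KO and 1257 RPM in its WT at 10 dpp, 4029 RPM in the Miwi2 KO and 2304 RPM in its WT, and 492 RPM in the Dnmt3L KO and 379 RPM in the WT at 16.5 dpc. Most of these came from miR-871-5p. They made up 2.57% to 6.50% of the family's reads, and in each library outnumbered the reads of every member other than Mir470 and Mir871.

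A 5′ end 1 base inside the annotated one was common in some other arms. Over the 6 libraries it held 34.1% of reads for miR-743b-3p, 20.1% for miR-883a-3p, 14.1% for miR-743a-3p, 11.1% for miR-878-3p and 7.80% for miR-871-5p. In miR-743b-3p the annotated end had 66.9% of reads in the Dnmt3L KO and 71.3% in its WT at 10 dpp, and 62.7% in the Miwi2 KO and 60.2% in its WT. The shifted form carries the seed AAGACAU in place of AAAGACA. Reads with AAGACAU had 24.3 RPM in the Dnmt3L KO and 55.0 RPM in its WT at 10 dpp, and 119 RPM in the Miwi2 KO and 57.6 RPM in its WT.

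**Figure D5:**
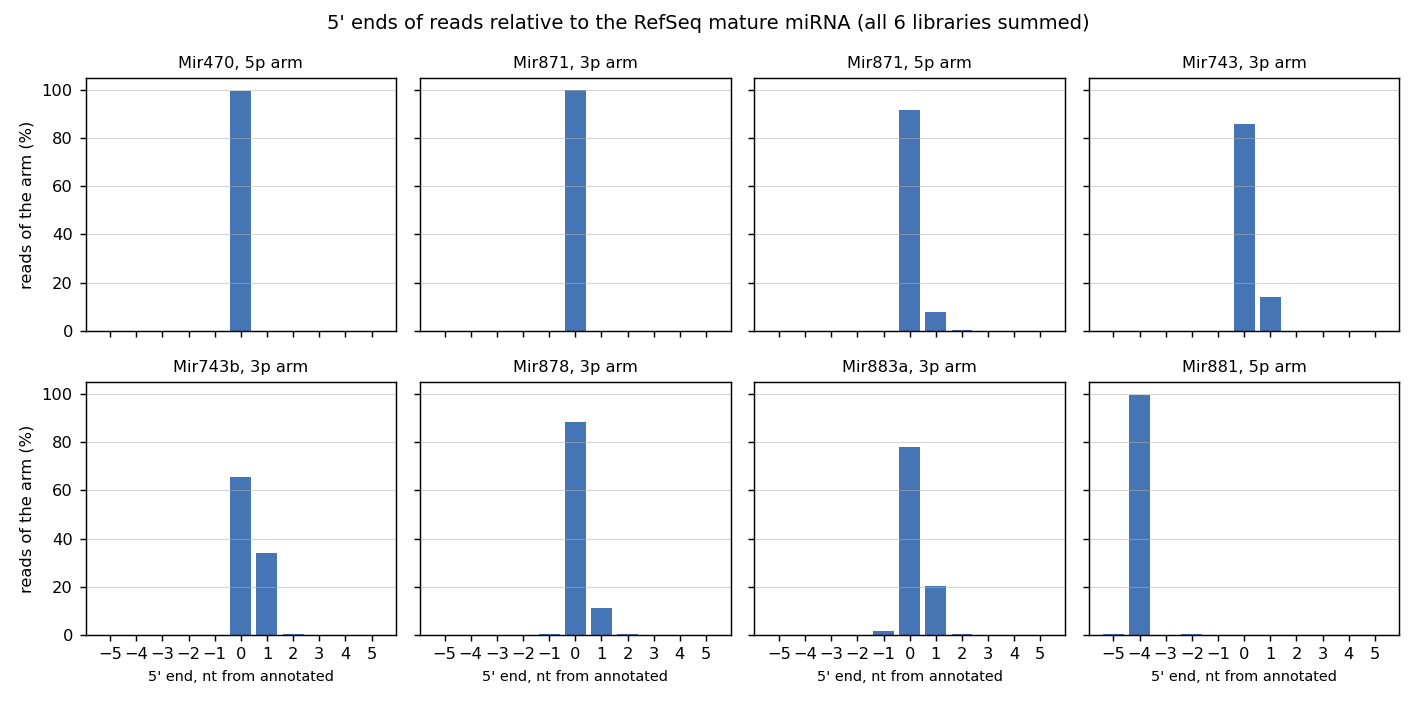
Share of an arm's reads, in percent, by the position of the 5′ end relative to the RefSeq mature miRNA (0, with negative values upstream), for 8 arms and all 6 libraries summed. Mir470 and Mir871 reads stand at 0, the 5p arm of Mir881 stands at -4, and the 3p arms of Mir743b and Mir883a have a further bar at 1.

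Reads also differed from the annotation in length. For miR-463-5p the form that ends 1 base past the RefSeq end, 23 nt long, held 87.5% to 98.1% of reads per library, and the annotated 22 nt form at most 0.237%. For miR-878-5p the 23 nt form held 75.7% to 95.7% and the annotated form at most 9.79%.
miR-463-5p, most read: tACCTAATttgttgtccatcatg
miR-878-5p, most read: tATCTAGTtggatgtcaagacac

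Bases added at the 3′ end that do not match the hairpin, up to 2, were rare on the family. They were on 3.95% of family reads in the Dnmt3L KO and 3.67% in its WT at 10 dpp, 5.02% in the Miwi2 KO and 4.57% in its WT, and 4.34% in the Dnmt3L KO and 3.57% in the WT at 16.5 dpc. Over all genes with a RefSeq mature miRNA the share was 9.13% to 23.9%. Within the family, added U was on 6.59% of miR-881-3p reads in the Dnmt3L KO and 5.46% in its WT at 10 dpp, and on 11.2% in the Miwi2 KO and 9.15% in its WT. Tails of any kind were on 9.99% of miR-743b-3p reads in the Dnmt3L KO and 7.46% in its WT, and on 15.96% in the Miwi2 KO and 14.3% in its WT. For both arms the Miwi2-line libraries were the higher of that age, but this was not particular to these arms. Over all genes with a RefSeq mature miRNA, tails were on 10.97% of reads in the Dnmt3L KO and 9.13% in its WT. In the Miwi2 KO that share was 13.4%, and in its WT 13.9%. Mouse line and the difference in read length between the files cannot be told apart here either. In miR-463-5p tails of any kind were on at most 0.432% of reads.

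The miRNA genes outside the family whose levels ran most like the family's sum were sought over the 6 libraries among 386 genes with reads in each. Likeness was the root mean square difference of log2 levels, each centred on its own mean. Mir470 and Mir871 were closest, as they make up the sum. The other members ranked between 158 (Mir201) and 305 (Mir741), with differences of 1.04 to 1.70. A likeness to the sum is therefore one to Mir470 and Mir871 and not to the other members. The 5 closest outside the family were Gm47276, Gm47281, Gm47285, Gm47301 and Mir5099, with differences of 0.49 to 0.60. The values of Gm47276 and Gm47281 are equal because the same reads were divided between them. Among genes matched in the RefSeq table the closest outside the family were Mir29a, Mir203, Mir20a, Mir16-1 and Mir16-2, with differences of 0.60 to 0.69. Mir133a-1 and Mir133a-2, at 0.603, ranked 9 and 10 of the 386, ahead of Mir203. They are left out of that list because their gene symbols were not matched in the RefSeq table.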

How the data were processed

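Each deposited file lists read sequences with whole-number counts, and the values used are the authors' raw counts per sequence. Libraries were made with the Illumina TruSeq small RNA kit from Trizol RNA, per the labels' protocols. The submitters' processing notes name the mm9 build. How reads were trimmed, aligned or filtered is not stated. Files of the Dnmt3L line at 10 dpp hold reads up to 100 nt and the others up to 50 nt. Library totals were 28701563 to 47232494 reads.

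Reads of 18 to 26 nt were matched exactly, in sense, to 2202 GENCODE vM21 miRNA genes (GRCm38), and reads of several genes were divided evenly. Levels are per 1e6 miRNA reads. Arms, seeds and sequences come from RefSeq (GRCm38.p6). Ratios have exact conditional binomial intervals, shares Clopper-Pearson intervals and levels Poisson intervals. The size rule and count minimum of 1000 reads are those of the text, and the rule for named genes takes all 10 members, the genes of other lists past the limit or with the most reads, and the 5 genes most like the family's sum. Mir471 and Mir547 were named after their values were seen. The steps were tested on simulated data. Members and lists were chosen with earlier results of these data known. Software was Python 3.11.15, pandas 2.3.3, scipy 1.17.1 and edgeR 4.0.16 (TMM factors only).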

Additional observations from a re-analysis of the deposited data

Results flagged for a closer look

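In the Dnmt3L line, 2 members had KO to WT ratios in opposite directions at the 2 ages, and the difference was not tested. For Mir871 the log2 ratio of the Dnmt3L KO over its WT was -1.98 at 10 dpp and 0.23 at 16.5 dpc, so the ratio at 16.5 dpc minus that at 10 dpp was 2.21. For Mir201 it was 0.27 at 10 dpp and -1.63 at 16.5 dpc, a difference of -1.90, with 44 reads in the KO and 140 reads in the WT at 16.5 dpc.

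Reads of 27 to 35 nt, longer than those counted above, also matched the family's hairpins in sense. They numbered 165 in the Miwi2 KO (11.5 RPM) and 101 in its WT (5.69 RPM). Per 1e6 family reads of 18 to 26 nt they were 159.5 in the Miwi2 KO and 160.4 in its WT, 17.2 in the Dnmt3L KO and 43.5 in its WT at 10 dpp, and 269 in the Dnmt3L KO and 330 in the WT at 16.5 dpc. Mir470 gave 88.5% of them in the Miwi2 KO and 93.1% in its WT.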

How the results depend on the processing

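No paired analysis was possible because each group is 1 library. All values are log2 ratios or counts of members past the limit. The family sum kept its direction and side of the limit in the Miwi2 comparison under all 10 alternatives (0.27 to 1.14). With distinct sequences counted once, the family sum of the Dnmt3L KO over WT at 10 dpp turned to 0.015 and that of the WT ages, 0.95, passed its limit of 0.69. It also passed when scaled to all reads of 18 to 35 nt (3.29). With reads of 1 miRNA gene only, the family sum at 16.5 dpc turned to 0.13. Family reads do not change in that setting, only the total they are scaled to.

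The count of members called at 16.5 dpc, 1 (Mir881), was 0 with distinct sequences, thinned libraries, the RefSeq limit (added after the data were seen), a minimum of 100 reads, and reads of 1 miRNA gene only. The count of 6 between WT ages was 1 with distinct sequences and 3 with thinned libraries, where 2 and 6 members had enough to be compared. Counting distinct sequences reversed Mir201 in the Miwi2 comparison (-0.10), Mir463 (0.21), Mir743b (0.10) and Mir881 (0.36) in the Dnmt3L KO at 10 dpp, and Mir463 (0.61), Mir741 (0.46) and Mir883a (0.23) at 16.5 dpc. Reads of 1 gene only reversed Mir743 (0.11) and Mir878 (0.0049) at 16.5 dpc. Counting distinct sequences gives each 1 count, whatever its reads, and the cause of each reversal was not tested. Depth limits Mir741 and Mir743 at 16.5 dpc, which had 7 to 30 reads.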
